A study of Mus musculus with 6 samples.

Results

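Endothelin-3 (ET-3) was compared with its vehicle DMSO in cultured muscle stem cells (MuSCs), using 4 of the 6 RNA-seq libraries of a study of G protein-coupled receptor ligands. All 4 came from MuSCs purified by fluorescence-activated cell sorting from 8 weeks old wild-type C57BL/6 mice and kept in culture for 5 days. The 2 control libraries received DMSO and the 2 treated libraries 100 nM ET-3 according to their labels. The study's methods name another dose. Of the 18943 genes with deposited values, the 14038 with a mean of at least 5 over the 4 libraries were tested, and the remaining 4905 were set aside. The comparison asks how the cells' transcripts differ after culture with ET-3, a ligand that the study examined as a factor acting on MuSC quiescence. The series' design text speaks of triplicates, while 2 libraries per group were analysed here. A figure legend of the study likewise describes its RNA-seq groups as triplicates of biological samples. How these relate to the 2 libraries per group is not known. The labels name replicates but not separate cultures or animals, so p-values measure only the spread between these libraries, which may be technical. A single value in 2 against 2 libraries cannot fall below p = 0.333 in a two-sided exact permutation test, and tests were therefore made in 1 model over all genes.

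MuSCs, also called satellite cells, lie beneath the basal lamina of the myofiber and are marked by the transcription factor PAX7. Once activated, they divide as myoblasts that express MYOD, then switch on myogenin, leave the cell cycle and fuse to myotubes, which build sarcomeres and the membrane system that releases calcium for contraction. ET-3 is a secreted peptide that binds the endothelin receptors A and B, which are G protein-coupled receptors.

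ET-3-treated cells held few or no transcripts of most contractile proteins, more transcripts of DNA replication and mitosis genes, and a set of genes that were almost silent with DMSO. By limma with Benjamini-Hochberg adjustment, on log2(deposited value + 1), 857 genes were upregulated and 2160 downregulated, where both terms mean an adjusted p of at most 0.05 and a change of at least 2-fold. These are 6.10% and 15.4% of the tested genes. Without the fold threshold, 3880 genes (27.6%) were higher and 4528 (32.3%) lower, and each count of group members given hereafter should be read against these shares. Over the tested genes the median change was -0.02 on the log2 scale, and the middle part of the distribution ran from -0.56 (25th percentile) to 0.36 (75th percentile). All 857 upregulated and all 2160 downregulated genes had 4 values that did not overlap between the groups, which was so for 79.8% of all tested genes. Log2 fold changes are given ± SE with 2 libraries per group. A bulk library cannot tell fewer cells of a type from less RNA per cell.

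The 2 ET-3 libraries differed from each other by no more than read sampling would give, with a mean chi-square of 0.889 per gene on reads recovered from the deposited values, against 1.46 for the DMSO pair. Such a pair cannot be told apart from 1 culture prepared as 2 libraries. They were kept as 2 samples, as labelled, and averaged into 1 sample they left 443 genes upregulated and 1735 downregulated. A call is described as lost hereafter where the adjusted p of the gene rose above 0.05 under that averaging or without 1 library. Leaving out a single library gave 455 upregulated genes without ET-3 replicate 1 and 476 without ET-3 replicate 2, and 1239 and 1188 downregulated genes without DMSO replicates 1 and 2. Summed deposited values ran from 4296424 to 4600575 per library. Calls of well-measured genes rested on small errors: the median SE of a log2 fold change was 0.41 for genes with a mean of 5 to 20 and 0.05 for the most abundant genes.

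**Figure D1:**
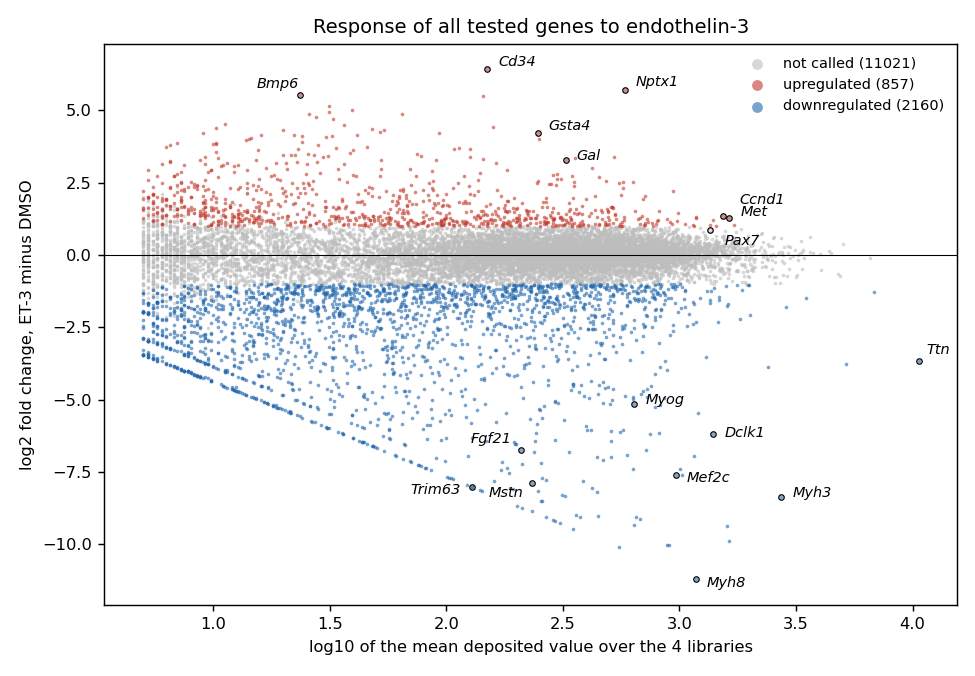
Each point is a tested gene, with the log10 of its mean deposited value over the 4 libraries on the x axis and its log2 fold change (ET-3 minus DMSO) on the y axis. The 857 upregulated genes are red, the 2160 downregulated genes blue and the rest grey. The blue points reach much farther from 0 than the red ones, and the lower oblique edge is formed by genes at 0 in both ET-3 libraries.

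The losses were deeper than the gains. Among downregulated genes 1136 changed at least 4-fold and 122 at least 64-fold, whereas 242 and 1 of the upregulated genes did. The median log2 fold change was -2.10 for the downregulated and 1.49 for the upregulated genes. Genes called down took 13.7% and 14.0% of the summed deposited value in the DMSO libraries and 3.39% and 3.52% in the ET-3 libraries. Genes called up took 1.45% and 1.37% with DMSO and 4.15% in each ET-3 library. Of the downregulated genes, 174 stood at 0 in both ET-3 libraries, 56 of them with a DMSO mean of at least 50. Of the upregulated genes, 7 stood at 0 in both DMSO libraries. They were Bmp6, Gsta1, Gsta2, Ptprz1, Rnf183, Rspo1 and Tmem59l, and these 7 are named because of that count.

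**Figure D2:**
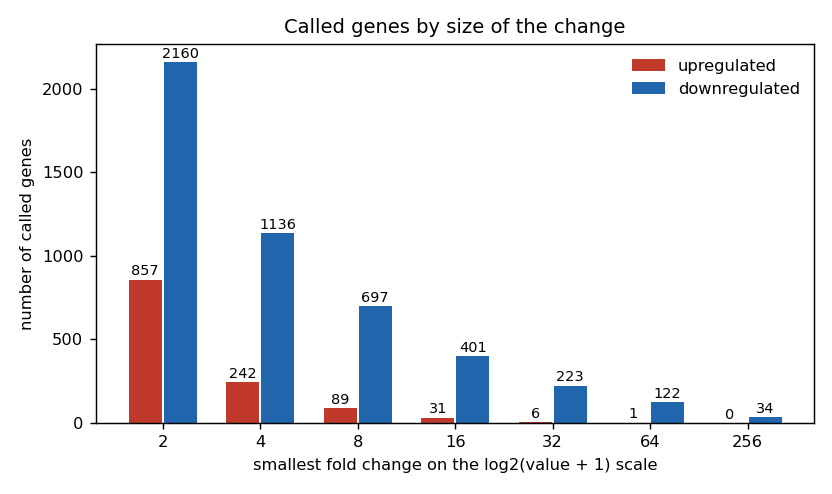
Bars count the upregulated (red) and downregulated (blue) genes whose change reached at least the fold on the x axis, on the log2(value + 1) scale. The blue bars exceed the red ones at every size, from 2160 against 857 at 2-fold to 34 against 0 at 256-fold.

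The labelled cell type was present in all 4 libraries. Of 12 markers of MuSCs and myoblasts, 10 were measured well enough to be tested, and their summed value was 11497 and 12648 with DMSO and 10674 and 10391 with ET-3. The summed markers of other cells in muscle differed between the groups. Fibroadipogenic markers (9 of 13 in the table) summed to 1218 and 1259 with DMSO and to 613 and 685 with ET-3. Of 7 tested, 4 were downregulated, fewer without either DMSO library, and 1 was upregulated. That 1 was no longer called upregulated without either ET-3 library. Leukocyte and macrophage markers (6 of 13) summed to 102 and 107 with DMSO and to 232 and 207 with ET-3, most of it Laptm5 (64 and 63 to 178 and 179), and the pan-leukocyte gene Ptprc was not analysed here. Endothelial markers (9 of 13) summed to 171 and 145 with DMSO and to 199 and 213 with ET-3, while the endothelial cadherin gene Cdh5 had 0 to 5 per library and Pecam1, another endothelial adhesion gene, had 3 to 10. Of the 6 tested endothelial markers 1, Tek, was upregulated and 1 downregulated. The latter was no longer called downregulated when any 1 library was left out. Tek, which is also counted below among the MuSC quiescence genes, gained more than the sum did on average. Smooth muscle and pericyte markers (12 of 13) summed to 6690 and 7636 with DMSO and to 2780 and 2800 with ET-3. Much of these sums came from Notch3, a Notch receptor gene described below, and from Des (1950 and 2280 to 1688 and 1654). Des is also on the list of MuSC and myoblast markers. Of the 9 tested, 7 were downregulated, including Pdgfrb (log2 fold change -5.82 ± 0.23) and Rgs5 (log2 fold change -5.11 ± 0.33), while Myh11 and Cnn1 had at most 4 in any library. Schwann cell markers summed to 1771 and 1855 with DMSO and to 791 and 759 with ET-3, where Erbb3 went from 1458 and 1519 to 98 and 76 and Ngfr from 93 and 115 to 609 and 600. Their part in the results was not tested.

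The contractile apparatus came first by size. Of 59 tested sarcomere genes, 54 were downregulated and none upregulated, with a median log2 fold change of -6.08 against -0.02 for all genes. Myosin heavy chains led the losses, and the genes for Myh3 (chr11:67078300-67102291), Myh1 (chr11:67200052-67224575) and Myh8 (chr11:67277124-67308634) lie in 1 cluster (GENCODE annotation of GRCm38). Myh8, the perinatal heavy chain, had 2268 and 2450 with DMSO and 0 and 0 with ET-3. Both ET-3 libraries were empty of it, so that its level was at least 786-fold lower, with the floor set at 3 per library. Myh7, the slow heavy chain, had 688 and 708 with DMSO and 0 and 0 with ET-3, at least 233-fold lower. Myh1 went from 2998 and 3406 to 5 and 3 (log2 fold change -9.35 ± 0.20, adjusted p = 2.09e-06), and Myh3, the embryonic heavy chain, from 5115 and 5798 to 14 and 17 (log2 fold change -8.37 ± 0.11).

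Other filament systems moved with the myosins. The cardiac actin gene Actc1 went from 1202 and 1392 to 1 and 2 (log2 fold change -9.05 ± 0.24, adjusted p = 2.87e-06). Titin kept more of its transcript: Ttn had 18751 and 20645 with DMSO and 1406 and 1696 with ET-3, the largest loss in deposited value of any gene (log2 fold change -3.67 ± 0.10, adjusted p = 2.8e-06). Neb, the nebulin gene of the thin filament, showed nearly the same ratio, with 9244 and 10073 with DMSO and 635 and 783 with ET-3 (log2 fold change -3.77 ± 0.10). Ttn and Neb transcripts are very long, which enlarges their deposited values. The genes that lost most by deposited value also included the spectraplakin gene Macf1 (9411 and 9956 to 3906 and 4153), Flnc (4935 and 5333 to 1902 and 1779), Prune2 (4502 and 4364 to 1255 and 1283) and Dclk1, a microtubule-associated kinase gene (2733 and 2787 to 35 and 40), all downregulated. The 5 tested sarcomere genes that were neither upregulated nor downregulated are named because of their count. Xirp1 (log2 fold change -0.71 ± 0.06) and Des, the desmin gene (log2 fold change -0.34 ± 0.08), were lower by less than 2-fold, Tpm3 was higher (log2 fold change 0.47 ± 0.05), and Tpm1 (1683 and 1852 to 1687 and 1629) and Tmod4 (8 and 5 to 5 and 8) did not pass the test. The call on Des was lost without DMSO replicate 2 (adjusted p = 0.0573), without ET-3 replicate 1 (adjusted p = 0.176), without ET-3 replicate 2 (adjusted p = 0.195) and with the ET-3 pair averaged (adjusted p = 0.187).

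**Figure D3:**
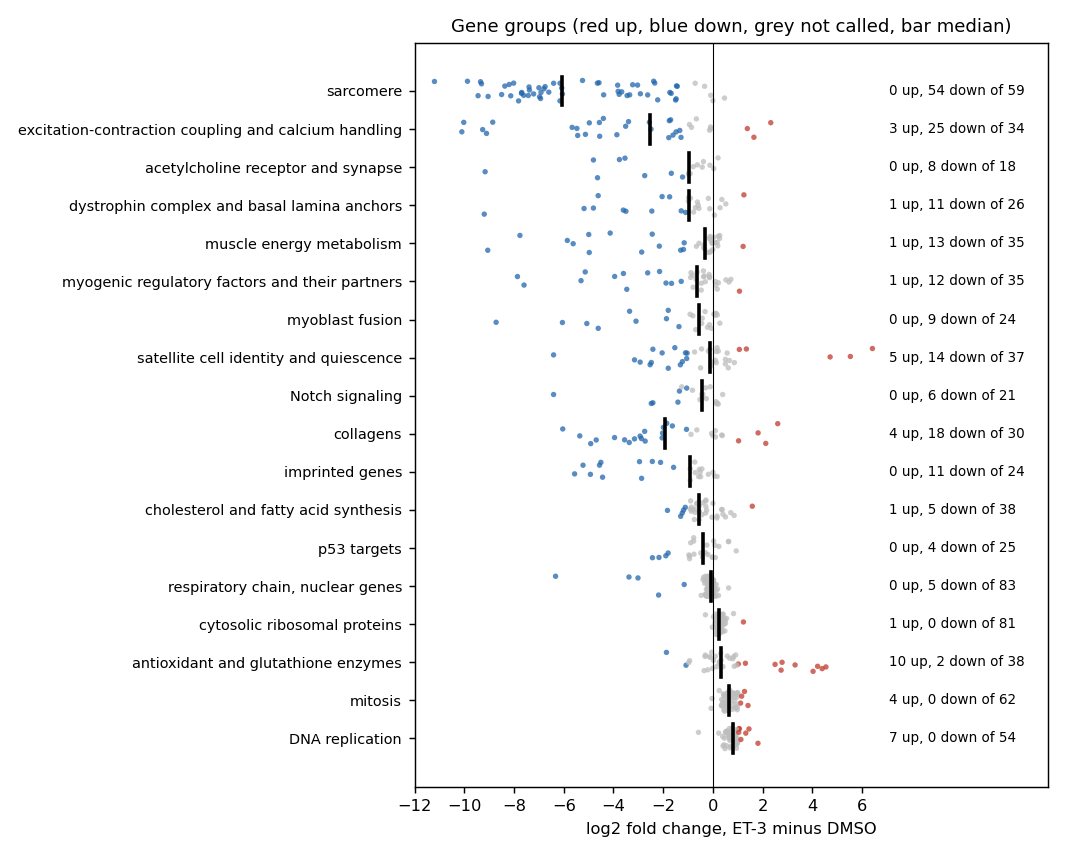
Each point is a tested member of a gene group, placed by its log2 fold change (ET-3 minus DMSO) on the x axis, red if upregulated, blue if downregulated and grey if neither. Black bars are group medians and the text at the right counts the calls. Sarcomere genes spread down to -11.20 with a median of -6.08, while DNA replication and mitosis genes sit in narrow clouds above 0.

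Genes of excitation-contraction coupling, by which a membrane voltage change releases calcium from the sarcoplasmic reticulum, followed. Of 34 tested, 25 were downregulated and 3 upregulated, with a median of -2.52. Cacna1s, the voltage sensor, had 1774 and 1834 with DMSO and 0 and 2 with ET-3 (log2 fold change -10.03 ± 0.48, adjusted p = 2.24e-05). The calcium release channel gene Ryr1 dropped less far, with 4361 and 4640 with DMSO and 290 and 327 with ET-3 (log2 fold change -3.86 ± 0.07). Genes for proteins of the reticulum's calcium store stood at 0 in both ET-3 libraries. With DMSO, Hrc had 1050 and 1148, Casq1 had 614 and 613 and Trdn, the triadin gene, had 441 and 487. Casq2 went from 1297 and 1409 to 2 and 1. The ubiquitous pump gene Atp2a2 (2390 and 2590 to 2309 and 2213) did not pass the test. The 3 upregulated members, named because of that count, were the inositol trisphosphate receptors Itpr1, Itpr2 and Itpr3, calcium channels found in most cell types. Itpr3 had 196 and 182 with DMSO and 978 and 927 with ET-3 (log2 fold change 2.33 ± 0.06, adjusted p = 3.21e-06), Itpr1 251 and 238 with DMSO and 753 and 785 with ET-3 (log2 fold change 1.65 ± 0.06) and Itpr2 150 and 121 with DMSO and 349 and 358 with ET-3 (log2 fold change 1.39 ± 0.11).

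Membrane, synapse and energy genes of muscle moved unequally. Of 26 tested genes of the dystrophin complex and its basal lamina anchors 11 were downregulated and 1, Dtnb, upregulated (median -0.94). Nid2, a basal lamina nidogen, went from 1385 and 1409 to 55 and 57 (log2 fold change -4.62 ± 0.06). Itgb1 (2070 and 2243 to 2035 and 1910) and Lamc1 (1363 and 1302 to 1431 and 1354) did not pass. Of 18 acetylcholine receptor and synapse genes 8 were downregulated and none upregulated, with 5 downregulated without DMSO replicate 2 and 10 without ET-3 replicate 2. Scn4a, the muscle sodium channel, had 552 and 595 with DMSO and 0 and 0 with ET-3, while Chrna1, the receptor's alpha subunit, had 2083 and 2305 with DMSO and 2070 and 1957 with ET-3 and did not pass (adjusted p = 0.132). Of 35 muscle energy genes 13 were downregulated and 1, Ampd3, upregulated (median -0.33). The creatine kinase gene Ckm went from 545 and 520 to 0 and 0, the myoglobin gene Mb from 507 and 557 to 1 and 2 and Pgam2, muscle phosphoglycerate mutase, from 466 and 540 to 12 and 7. The pyruvate kinase gene Pkm had 1496 and 1668 with DMSO and 1834 and 1724 with ET-3 and did not pass (adjusted p = 0.062).

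The nuclear genes of the respiratory chain, by contrast with these enzymes, stayed close to the all-gene median. Of 83 tested, 5 were downregulated and none upregulated, with a median of -0.09. Without the fold threshold 23 were lower, a count that became 7 when libraries were scaled to their totals, and 3 were then higher. The 5, named because of that count, were the muscle isoform genes Cox8b (80 and 79 to 0 and 0), Cox7a1 (27 and 27 to 2 and 3) and Cox6a2 (151 and 155 to 30 and 36), Ndufv3 (311 and 324 to 141 and 143) and Ndufa4l2 (23 and 8 to 1 and 0). The call on Ndufa4l2 was lost without any 1 of the 4 libraries (adjusted p = 0.068 to 0.118) and with the ET-3 pair averaged (adjusted p = 0.102). The abundant ATP synthase genes Atp5a1 (1481 and 1663 to 1664 and 1535) and Atp5b (1465 and 1671 to 1641 and 1537) did not pass. Cytosolic ribosomal protein genes, whose many pseudogene copies make their counts uncertain, had a median of 0.26, with 50 of 81 higher at an adjusted p of at most 0.05, 1 lower (Rpl22, log2 fold change -0.30 ± 0.05) and 1 upregulated by 2-fold or more (Rps10, 32 and 24 to 61 and 72). The Rps10 call was lost without any 1 of the 4 libraries (adjusted p = 0.0556 to 0.089) and with the ET-3 pair averaged (adjusted p = 0.0797). Scaled to the library total, 70 of the 81 were higher and the median was 0.35.

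Upstream of the muscle genes, the myogenic regulatory factors parted. Myod1 (1324 and 1444 to 1539 and 1449, log2 fold change 0.11 ± 0.06, adjusted p = 0.151) and Myf5 (506 and 466 to 483 and 434, log2 fold change -0.08 ± 0.07, adjusted p = 0.366) did not pass the test. Myog, the myogenin gene, fell from 1157 and 1335 to 31 and 38 (log2 fold change -5.14 ± 0.12, adjusted p = 2.7e-06). Its partner Mef2c fell further, from 1927 and 1930 to 8 and 10 (log2 fold change -7.60 ± 0.12, adjusted p = 1.7e-06). Mef2a (log2 fold change -0.90 ± 0.04) and Mef2d (log2 fold change -0.68 ± 0.06) were lower by less than 2-fold, so the factors of that family moved by unequal amounts. Myf6, a late-acting member, went from 143 and 121 to 15 and 8. Its call was lost without DMSO replicate 1 (adjusted p = 0.0698) and without DMSO replicate 2 (adjusted p = 0.0657). In the whole list of factors and partners, 12 of 35 were downregulated and 1, Six2 (64 and 68 to 141 and 138), upregulated. Mstn, which encodes the growth inhibitor myostatin, had 479 and 451 with DMSO and 1 and 1 with ET-3 (log2 fold change -7.86 ± 0.21). Id3, an antagonist of the myogenic factors, had 582 and 678 with DMSO and 686 and 656 with ET-3 and did not pass (adjusted p = 0.346).

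Fusion genes divided in a like manner. Of 24 tested, 9 were downregulated and none upregulated. Mymx and Mymk encode the muscle fusogens, which merge myoblast membranes. Mymx had 403 and 441 with DMSO and 0 and 0 with ET-3, at least 141-fold lower. Mymk had 956 and 1043 with DMSO and 36 and 44 with ET-3 (log2 fold change -4.61 ± 0.12, adjusted p = 2.7e-06). Klhl41 (1049 and 1211 to 17 and 15) and Itgb1bp2 (561 and 580 to 15 and 17) were also downregulated. The actin regulators Rac1 (818 and 898 to 932 and 901) and Dock1 (474 and 449 to 496 and 514), which act in many cells, did not pass.

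Genes of MuSC identity and quiescence moved in both directions. Of 37 tested, 5 were upregulated and 14 downregulated (median -0.13), against 6.10% and 15.4% of all tested genes. Calls down also outnumbered calls up among all genes. Pax7 rose from 857 and 1070 to 1754 and 1730, a change under 2-fold (log2 fold change 0.86 ± 0.10, adjusted p = 0.000669). This call was lost without ET-3 replicate 1 (adjusted p = 0.0857), without ET-3 replicate 2 (adjusted p = 0.0803) and with the ET-3 pair averaged (adjusted p = 0.0838). Cd34, a sialomucin of the quiescent cell's surface, rose from 5 and 1 to 330 and 264 (log2 fold change 6.42 ± 0.51, adjusted p = 0.000144), and the call was lost without ET-3 replicate 1 (adjusted p = 0.0543) and with the ET-3 pair averaged (adjusted p = 0.0526). Tek, the angiopoietin receptor gene, rose from 2 and 1 to 68 and 59 (log2 fold change 4.72 ± 0.34, adjusted p = 0.000102), and Bmp6, a bone morphogenetic protein gene, had 0 in both DMSO libraries and 60 and 34 with ET-3, at least 15.7-fold higher. Met, the receptor for hepatocyte growth factor, went from 917 and 817 to 2234 and 2171 (log2 fold change 1.35 ± 0.06). 2 markers of the lineage were downregulated, Cdh15, the M-cadherin gene, from 1547 and 1746 to 483 and 462, and Fgfr4, a fibroblast growth factor receptor gene, from 934 and 1060 to 323 and 365. The adhesion genes Itgb1 and Sdc3 (1918 and 2103 to 2229 and 2187) did not pass.

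Several of the downregulated genes of that list belong to Notch signaling, a pathway known to hold MuSCs quiescent. Of 21 tested Notch genes 6 were downregulated and none upregulated (median -0.44). Heyl, a transcriptional target, went from 382 and 566 to 5 and 4 (log2 fold change -6.41 ± 0.24, adjusted p = 9.64e-06), and Hey1, another target, from 279 and 353 to 54 and 57 (log2 fold change -2.48 ± 0.14). The receptor gene Notch3 went from 1397 and 1773 to 305 and 284 (log2 fold change -2.41 ± 0.11) and Dtx4, a Deltex ubiquitin ligase, from 702 and 761 to 278 and 272. The receptor gene Notch2 (967 and 865 to 973 and 1010, adjusted p = 0.165) and the target Hes1 (260 and 336 to 340 and 347, adjusted p = 0.172) did not pass. The fallen Notch targets were thus Heyl and Hey1, with Hes1 not among them.

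**Figure D4:**
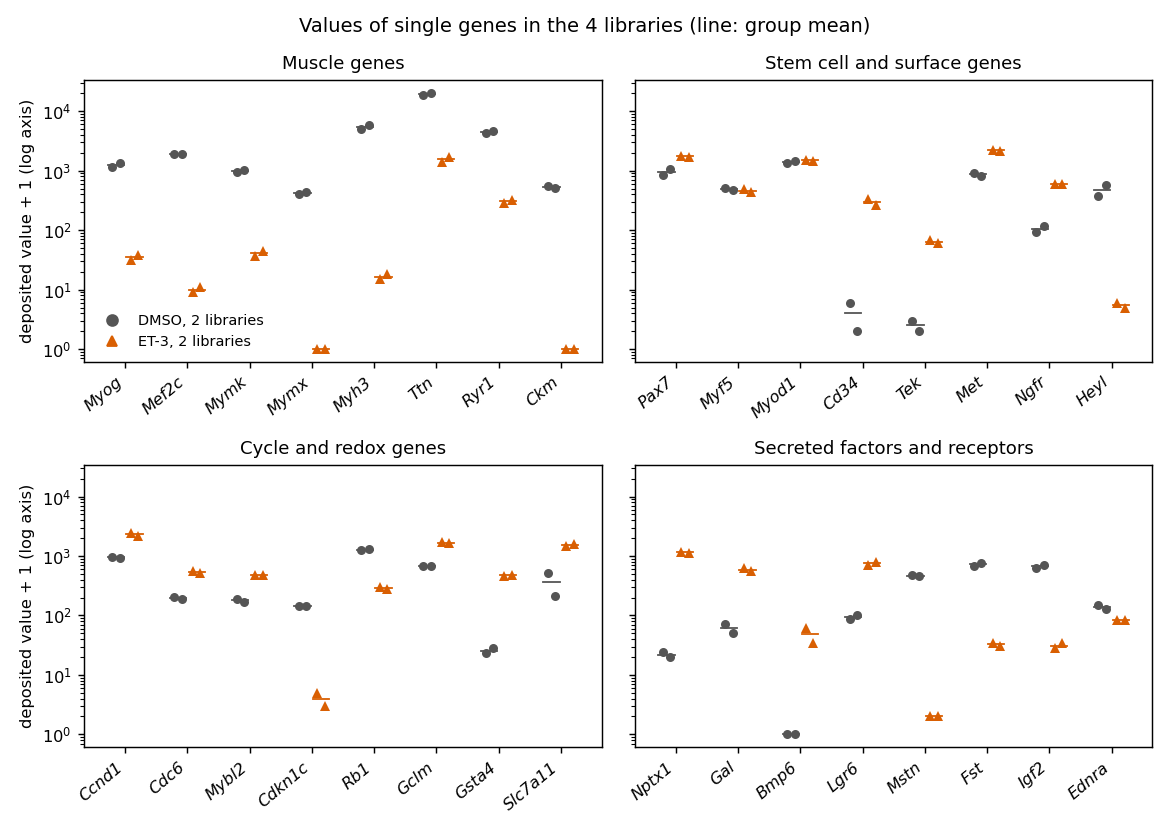
Deposited values plus 1 (log axis) of 32 genes in the 2 DMSO libraries (grey circles) and the 2 ET-3 libraries (orange triangles), with the group mean as a line. Myog, Mef2c, Mymk and Mymx drop between the groups while Myf5 and Myod1 stay level, and Pax7, Cd34, Tek, Met and Ngfr stand higher with ET-3.

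Cell cycle genes shifted upward together by amounts that mostly stayed under 2-fold. Of 54 tested DNA replication genes 53 were higher at an adjusted p of at most 0.05, against 27.6% of all genes, and 7 of them by at least 2-fold (median 0.80). Orc1, a subunit of the origin recognition complex, went from 54 and 49 to 195 and 172 (log2 fold change 1.81 ± 0.13, adjusted p = 0.0001), Cdc6, which loads the helicase, from 207 and 188 to 566 and 517 (log2 fold change 1.45 ± 0.08) and Mcm10 from 253 and 251 to 643 and 621 (log2 fold change 1.32 ± 0.05). The exception, E2f2, was lower (701 and 770 to 503 and 479, log2 fold change -0.58 ± 0.06), and the call was lost without ET-3 replicate 1 (adjusted p = 0.0515), without ET-3 replicate 2 (adjusted p = 0.0558) and with the ET-3 pair averaged (adjusted p = 0.0545). Of 62 mitosis genes 59 were higher and none lower, 4 of them by at least 2-fold (median 0.64), a count that became 9 without DMSO replicate 2 and 8 without ET-3 replicate 2. The 4 were Mybl2 (189 and 167 to 478 and 471), Espl1, the separase gene (391 and 402 to 948 and 968), Ttk (170 and 156 to 371 and 358) and Kif2c (315 and 341 to 712 and 709). Mki67, the proliferation marker, had 1850 and 2002 with DMSO and 2595 and 2678 with ET-3 (log2 fold change 0.45 ± 0.05, adjusted p = 0.000616), and the call was lost without ET-3 replicate 1 (adjusted p = 0.0577), without ET-3 replicate 2 (adjusted p = 0.0616) and with the ET-3 pair averaged (adjusted p = 0.0604). Ube2c (389 and 419 to 403 and 366) and Cenpm (50 and 52 to 55 and 45) did not pass.

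Regulators of entry into the cycle moved in both directions. Of 37 tested, 4 were upregulated, 2 without ET-3 replicate 2, and 4 downregulated. Ccnd1, the cyclin D1 gene, had the largest gain in deposited value of any upregulated gene, from 964 and 926 to 2409 and 2197 (log2 fold change 1.28 ± 0.06, adjusted p = 1.73e-05). The CDK inhibitor gene Cdkn1c went from 145 and 143 to 4 and 2 (log2 fold change -5.23 ± 0.31), Rb1, the retinoblastoma gene, from 1258 and 1298 to 297 and 279 (log2 fold change -2.15 ± 0.05) and Btg2 from 288 and 305 to 80 and 78. Cdkn1a, the p21 gene, was lower by less than 2-fold (1431 and 1594 to 783 and 791), as was Ccnd3 (1220 and 1354 to 690 and 673). Cdk2 (496 and 495 to 511 and 538) did not pass. Among 25 p53 target genes, to which Btg2 and Cdkn1a also belong, 4 were downregulated and none upregulated, including Eda2r (860 and 755 to 195 and 163) and Pmaip1 (513 and 548 to 145 and 158), while Mdm2 had 787 and 819 with DMSO and 813 and 774 with ET-3 and did not pass.

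Short promoter motifs were counted because the members of these groups moved together. RefSeq windows of 300 bases (250 before and 50 from the start site, GRCm38.p6) were used for the 8245 tested genes with a single window, and each motif was searched on both strands. CAGCTG, an E-box that myogenic factors can bind, occurred in 24.2% of downregulated and 16.6% of upregulated genes, against 15% of all tested genes, and in 16 of 39 sarcomere genes (41%) and 37.5% of the 16 excitation-contraction coupling genes with a window. TATAAA occurred in 30.8% of sarcomere genes against 7.08% of all, and in 0 of the 16 excitation-contraction coupling genes. It also occurred in 28% of the 25 antioxidant and glutathione enzyme genes with a window. TTTGAA, the letters of the cell cycle genes homology region, occurred in 33 of 46 mitosis genes (71.7%) against 11.5% of all, and CCAAT in 67.4% against 39.3%. TTTCCCGC, letters of E2F sites, occurred in 16.7% of DNA replication genes, 0.516% of downregulated genes and 2.26% of all, and its variant TTTGGCGC in 16.7%, 0.172% and 0.995%. The core of the sites that MEF2 factors bind occurred in 15.4% of sarcomere genes, in 0 of the 16 excitation-contraction coupling genes and in 3.07% of all, and TGACNNNGC, the antioxidant element, in 24% of antioxidant genes and 14.8% of all. CAGCTG reads the same on both strands, and no matches overlapped in the windows printed here. These matches describe letters and not bound sites.

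The windows of 6 genes are shown because their groups carried these motifs, taken from the 3 most changed members of each group that have a single window. The first pair are sarcomere genes that fell, Myh1 (GRCm38.p6 chr11:67199852-67200151, plus strand) and Mybph (chr1:134193198-134193497, plus strand), with CAGCTG and TATAAA in capitals, the latter reading TTTATA on the other strand. Myh1 holds TATAAA matches only.
Myh1: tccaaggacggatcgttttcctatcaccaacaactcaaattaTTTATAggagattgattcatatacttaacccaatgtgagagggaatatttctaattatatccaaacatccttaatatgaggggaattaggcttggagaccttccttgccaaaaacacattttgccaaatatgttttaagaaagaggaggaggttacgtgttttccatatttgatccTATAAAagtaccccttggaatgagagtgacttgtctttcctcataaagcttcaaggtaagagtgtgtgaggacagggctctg
Mybph: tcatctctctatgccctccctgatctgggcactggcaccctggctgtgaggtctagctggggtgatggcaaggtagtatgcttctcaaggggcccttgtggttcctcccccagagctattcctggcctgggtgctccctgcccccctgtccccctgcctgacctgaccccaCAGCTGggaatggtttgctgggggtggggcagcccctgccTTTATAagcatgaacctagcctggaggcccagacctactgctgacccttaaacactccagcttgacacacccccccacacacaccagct
The second pair are DNA replication genes that rose, Orc1 (chr4:108579204-108579503, plus strand) and Cdc6 (chr11:98907901-98908200, plus strand), with CCAAT (Orc1) and TTTCCCGC (Cdc6) in capitals, which read ATTGG and GCGGGAAA where they lie on the other strand.
Orc1: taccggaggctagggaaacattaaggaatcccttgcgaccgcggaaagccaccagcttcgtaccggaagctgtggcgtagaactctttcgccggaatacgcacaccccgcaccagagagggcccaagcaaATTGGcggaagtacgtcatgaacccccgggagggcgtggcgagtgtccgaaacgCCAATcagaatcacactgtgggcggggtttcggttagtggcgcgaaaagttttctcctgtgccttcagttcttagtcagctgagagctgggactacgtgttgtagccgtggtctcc
Cdc6: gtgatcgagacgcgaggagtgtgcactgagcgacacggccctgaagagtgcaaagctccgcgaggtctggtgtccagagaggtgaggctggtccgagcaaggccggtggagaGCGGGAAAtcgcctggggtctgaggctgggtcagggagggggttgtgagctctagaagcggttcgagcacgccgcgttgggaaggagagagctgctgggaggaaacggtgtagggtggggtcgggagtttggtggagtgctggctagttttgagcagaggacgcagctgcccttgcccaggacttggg
The last pair are mitosis genes that rose, Espl1 (chr15:102296043-102296342, plus strand) and Ttk (chr9:83834439-83834738, plus strand), with TTTGAA and CCAAT in capitals, which read TTCAAA and ATTGG on the other strand.
Espl1: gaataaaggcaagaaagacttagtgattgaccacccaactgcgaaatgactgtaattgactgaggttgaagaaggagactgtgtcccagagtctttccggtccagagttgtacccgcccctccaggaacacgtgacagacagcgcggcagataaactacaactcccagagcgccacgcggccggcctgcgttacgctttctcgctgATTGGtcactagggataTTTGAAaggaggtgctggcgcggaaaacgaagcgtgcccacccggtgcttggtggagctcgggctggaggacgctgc
Ttk: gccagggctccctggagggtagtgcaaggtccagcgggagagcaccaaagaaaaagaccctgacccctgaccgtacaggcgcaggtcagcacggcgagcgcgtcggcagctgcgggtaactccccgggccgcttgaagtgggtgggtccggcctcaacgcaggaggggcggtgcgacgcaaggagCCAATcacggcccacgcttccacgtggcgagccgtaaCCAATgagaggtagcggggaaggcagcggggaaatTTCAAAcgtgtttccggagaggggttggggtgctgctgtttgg
Counted from the start site, the CCAAT match of Espl1 began at -44 and its TTTGAA match at -27, while in Ttk CCAAT matches began at -65 and -28 and TTTGAA at 8. Of the other 3 windows, which are not printed, those of Myh8 and Mcm10 held only TATAAA and CCAAT matches, respectively, and that of Mybl2 held neither of the motifs searched in its group.

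The endothelin system itself was measured at unequal levels, lowest for the ligand genes Edn3 and Edn1. Of 9 genes listed, 6 were tested, and the receptor gene Ednrb was not analysed here. The receptor gene Ednra had 148 and 128 with DMSO and 82 and 83 with ET-3 (log2 fold change -0.73 ± 0.12, adjusted p = 0.00298), and the call was lost without ET-3 replicate 1 (adjusted p = 0.0728), without ET-3 replicate 2 (adjusted p = 0.068) and with the ET-3 pair averaged (adjusted p = 0.0715). Ece1, which cuts the precursor peptides, went from 496 and 516 to 311 and 326 (log2 fold change -0.67 ± 0.06, adjusted p = 0.000215). Edn3, which encodes the ligand that was added, had 1 and 2 with DMSO and 11 and 7 with ET-3, and the call (log2 fold change 2.00 ± 0.46) was lost without any 1 of the 4 libraries (adjusted p = 0.0595 to 0.0981) and with the ET-3 pair averaged (adjusted p = 0.0711). Edn1 (17 and 10 to 21 and 14) and Mme (39 and 44 to 27 and 31), the neprilysin gene, did not pass.

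Mylk, the smooth muscle myosin light chain kinase gene, went from 120 and 104 to 4 and 8 (log2 fold change -4.07 ± 0.33), and the call was lost without DMSO replicate 1 (adjusted p = 0.0603) and without DMSO replicate 2 (adjusted p = 0.0584). The formin gene Fhod3 went from 398 and 418 to 30 and 28 (log2 fold change -3.77 ± 0.11), while Rock2 (1597 and 1611 to 1617 and 1583) and the guanine nucleotide exchange factor gene Arhgef12 (1298 and 1391 to 1407 and 1446) did not pass. Gna12 (log2 fold change 0.51 ± 0.08), Gna13 (log2 fold change 0.25 ± 0.06) and Rhoa (log2 fold change 0.18 ± 0.06) were higher by under 2-fold. The call on Gna12 was lost without DMSO replicate 1 (adjusted p = 0.125) and without DMSO replicate 2 (adjusted p = 0.114). The call on Gna13 was lost without any 1 of the 4 libraries (adjusted p = 0.0849 to 0.191) and with the ET-3 pair averaged (adjusted p = 0.147). The call on Rhoa was lost without any 1 of the 4 libraries (adjusted p = 0.0729 to 0.294) and with the ET-3 pair averaged (adjusted p = 0.111). Among 20 genes that end receptor signals 7 were downregulated and 2 upregulated, 1 without DMSO replicate 2 or either ET-3 library. Rgs5 went from 117 and 150 to 4 and 2 and Rgs4 from 154 and 171 to 19 and 20, both encoding proteins that switch off G protein subunits, whereas Grk6, a receptor kinase gene, rose from 287 and 286 to 1155 and 1072 (log2 fold change 1.95 ± 0.06, adjusted p = 3.78e-06).

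Targets and regulators of serum response factor and YAP, counted together, had a median of -0.28, with 8 of 40 downregulated and 1 upregulated. The count is therefore not one of targets alone. Actg2 (84 and 64 to 6 and 4) and Tagln (558 and 589 to 102 and 107), smooth muscle actin and transgelin genes, were downregulated, while Ccn1 (855 and 1044 to 1107 and 1042) did not pass. The AP-1 genes parted, Fos from 195 and 231 to 37 and 40 (log2 fold change -2.43 ± 0.14) and Fosb from 19 and 25 to 99 and 94 (log2 fold change 2.10 ± 0.20). Of 29 immediate early genes 7 were downregulated, with Atf3 (338 and 230 to 27 and 20) at the low end, and 4 upregulated. Klf6 (839 and 872 to 867 and 816) did not pass.

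Genes of redox defence were higher more often than lower. Of 38 tested antioxidant and glutathione enzyme genes 10 were upregulated (8 to 11 when single libraries were left out) and 2, Sod3 and Gpx7, downregulated (1 without any single library), against 6.10% and 15.4% of all genes. Gsta4, a glutathione S-transferase, rose from 22 and 27 to 465 and 474 (log2 fold change 4.21 ± 0.13, adjusted p = 5.16e-06). Gsta1 and Gsta2 were at 0 in both DMSO libraries and low with ET-3, where Gsta1 had 25 and 16 and Gsta2 had 20 and 25. They are near-identical copies (chr9:78230656-78242684 and chr9:78331018-78355788), so that reads shared by both may have been split or left out. Gclm, a subunit of the enzyme that makes glutathione, went from 682 and 676 to 1689 and 1675 (log2 fold change 1.31 ± 0.04). After their values were seen, 3 further upregulated members were added, Nqo1 (86 and 92 to 591 and 612, log2 fold change 2.74 ± 0.07), Srxn1 (171 and 158 to 953 and 917, log2 fold change 2.50 ± 0.06) and Aldh3a1 (7 and 11 to 91 and 101). Nfe2l2, which encodes a transcription factor that controls many of these genes, had 746 and 764 with DMSO and 763 and 734 with ET-3 and did not pass (adjusted p = 0.834), nor did Prdx2 (512 and 564 to 591 and 558). The cystine transporter gene Slc7a11 had 515 and 210 with DMSO and 1467 and 1575 with ET-3 (log2 fold change 2.20 ± 0.38, adjusted p = 0.00319). Its DMSO libraries differed by more than 2-fold, and the call was lost without ET-3 replicate 1 (adjusted p = 0.144), without ET-3 replicate 2 (adjusted p = 0.151) and with the ET-3 pair averaged (adjusted p = 0.149). Abcc1, which exports glutathione conjugates, went from 854 and 827 to 1966 and 1902 (log2 fold change 1.20 ± 0.04).

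Secreted factors changed in both directions. Of 122 tested genes annotated as growth factors, cytokines or hormones 25 were upregulated and 40 downregulated. The first count became 9 without either ET-3 library and 15 without DMSO replicate 2, and the second 23 and 20 without DMSO replicates 1 and 2. Nptx1, a neuronal pentraxin gene outside that annotation, had 23 and 19 with DMSO and 1178 and 1119 with ET-3 (log2 fold change 5.71 ± 0.12, adjusted p = 2.01e-06). Gal, which encodes the neuropeptide galanin, had 72 and 49 with DMSO and 616 and 562 with ET-3 (log2 fold change 3.29 ± 0.18, adjusted p = 3.53e-05). Prl2c3, a prolactin family gene with close copies, went from 2 and 3 to 45 and 42. Downregulated ligands included Fgf21 (433 and 400 to 2 and 4), Fgf6 (68 and 76 to 0 and 0), Igf2 (630 and 710 to 27 and 33) and the proteoglycan gene Ogn (919 and 945 to 11 and 3), whose call was lost without DMSO replicate 1 (adjusted p = 0.062) and without DMSO replicate 2 (adjusted p = 0.063). The activin antagonist gene Fst went from 684 and 770 to 33 and 30 (log2 fold change -4.48 ± 0.11). The BMP antagonist gene Chrd, also outside that annotation, went from 222 and 286 to 1 and 4. The call on Chrd was lost without DMSO replicate 1 and without DMSO replicate 2. Vegfa (1256 and 1195 to 1191 and 1147) did not pass.

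G protein-coupled receptor genes were downregulated more often than upregulated, as were all tested genes (15.4% against 6.10%). Of 120 tested genes annotated with G protein-coupled receptor activity 16 were upregulated and 45 downregulated. The 16 became 8 without either ET-3 library, and the 45 became 16 without either DMSO library and 29 without ET-3 replicate 1. The annotation also holds Gal and the glutamate receptor gene Grik3 (121 and 103 to 589 and 597), which are not such receptors. Lgr6, an R-spondin receptor, rose from 86 and 100 to 709 and 798 (log2 fold change 3.01 ± 0.10, adjusted p = 6.4e-06), Adgrg3, an adhesion receptor, from 87 and 76 to 515 and 514 (log2 fold change 2.65 ± 0.09), and Adcyap1r1, the receptor for the peptide PACAP, from 64 and 77 to 437 and 408 (log2 fold change 2.57 ± 0.11). Gpr20 (80 and 94 to 0 and 0), Gprc5c (930 and 1022 to 24 and 30) and the adenosine receptor gene Adora1 (99 and 113 to 1 and 2) were downregulated. Among growth factor receptors Ngfr rose from 93 and 115 to 609 and 600 (log2 fold change 2.54 ± 0.11, adjusted p = 1.52e-05), while Erbb3 fell from 1458 and 1519 to 98 and 76 (log2 fold change -4.09 ± 0.12) and Pdgfrb from 227 and 278 to 4 and 3 (log2 fold change -5.82 ± 0.23). By size of change, other leading gains were the kinase genes Mapk13 (4 and 7 to 294 and 272), which encodes p38 delta, and Prkcb (6 and 3 to 101 and 107), the chloride channel gene Ano1 (16 and 11 to 300 and 310), Gfra2 (6 and 3 to 100 and 99), a coreceptor for neurturin, Plet1 (2 and 1 to 80 and 75) and the long noncoding RNA Wincr1 (5 and 2 to 118 and 132). By deposited value they were Cad (1141 and 1115 to 2317 and 2296), which encodes the enzyme that begins pyrimidine synthesis, Otud4 (988 and 912 to 1904 and 1949), Itpripl2 (728 and 653 to 1624 and 1700) and Errfi1 (841 and 928 to 1878 and 1767), an inhibitor of the EGF receptor.

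Matrix genes went down more often than up, as did all tested genes (15.4% against 6.10%). Of 30 tested collagen genes 18 were downregulated and 4 upregulated (median -1.92), and the 18 became 11 without either DMSO library. The summed fibroadipogenic markers given above, which include Col15a1, were lower with ET-3 too, and their part in the collagen counts was not tested. Col25a1, a collagen made by muscle cells, went from 793 and 852 to 12 and 11 (log2 fold change -6.04 ± 0.12) and Col15a1, a basal lamina collagen, from 80 and 82 to 1 and 1 (log2 fold change -5.36 ± 0.29). Col5a2 (2292 and 2344 to 2269 and 2196) and Col4a2 (670 and 607 to 629 and 641) did not pass. The 4 upregulated collagens, named because of that count, were Col13a1, Col17a1, Col18a1 and Col27a1, and the call on Col17a1 (3 and 7 to 33 and 34) was lost without ET-3 replicate 1 (adjusted p = 0.089), without ET-3 replicate 2 (adjusted p = 0.0883) and with the ET-3 pair averaged (adjusted p = 0.0893). Of 33 glycoprotein and proteoglycan genes 10 were downregulated, with the periostin gene Postn going from 309 and 223 to 6 and 5, and 3 upregulated. The 10 became 6 and 4 without DMSO replicates 1 and 2, and the 3 became 1 without ET-3 replicate 1. Fn1, the fibronectin gene, had 3091 and 3302 with DMSO and 3362 and 3355 with ET-3 and did not pass. Among 42 integrin and adhesion genes 10 were downregulated and 8 upregulated, 4 without ET-3 replicate 1, among them Itga4 (541 and 487 to 14 and 12, log2 fold change -5.20 ± 0.14), which fell, and Cdh6 (33 and 24 to 456 and 485, log2 fold change 4.01 ± 0.17), which rose.

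Imprinted genes, which are expressed from a single parental allele, were lower as a group, with 11 of 24 downregulated and none upregulated (median -0.91). The 11 became 7 without either DMSO library. Meg3, a long noncoding RNA of the Dlk1-Dio3 region, went from 835 and 748 to 26 and 24 (log2 fold change -4.93 ± 0.11, adjusted p = 2.07e-06), and Mirg of the same cluster from 115 and 115 to 1 and 2 (log2 fold change -5.57 ± 0.31). Nnat went from 77 and 85 to 2 and 3. Plagl1 had 346 and 327 with DMSO and 372 and 385 with ET-3 and did not pass (adjusted p = 0.0541). Cdkn1c and Igf2, described above, belong to this list too.

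Sterol and fatty acid synthesis genes were mostly lower by small amounts, with 26 of 38 passing the test in that direction, 5 of them by at least 2-fold (median -0.55). The 5 became 3 and 2 without DMSO replicates 1 and 2 and 3 without ET-3 replicate 1. Tm7sf2 went from 68 and 71 to 30 and 28. Sqle (401 and 419 to 468 and 448) did not pass. Of 32 autophagy, lysosome and atrophy genes 5 were downregulated, 3 without ET-3 replicate 1, led by the ubiquitin ligase gene Trim63, at 256 and 260 with DMSO and 0 in both ET-3 libraries, while the lysosomal genes Ctsb (1237 and 1357 to 1367 and 1289) and Lamp1 (1125 and 1180 to 1087 and 1086) did not pass.

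Of 580 tested genes annotated as transcription factors 32 were upregulated and 87 downregulated, shares no larger than the 6.10% and 15.4% of all genes. The 32 became 17 without either ET-3 library and 20 without DMSO replicate 2, and the 87 became 56 and 53 without DMSO replicates 1 and 2. Lef1, a Wnt effector, rose from 23 and 22 to 98 and 118 (log2 fold change 2.21 ± 0.18, adjusted p = 0.000164). Rxrg (195 and 199 to 0 and 1), a retinoid receptor gene, was downregulated. In the Wnt pathway 16 of 42 genes were downregulated and 6 upregulated. The 16 became 7 and 8 without DMSO replicates 1 and 2, and the 6 became 3 without DMSO replicate 2 or either ET-3 library. Rspo1, the gene of a secreted Wnt enhancer, had 0 in both DMSO libraries and 21 and 15 with ET-3, while Ctnnb1, the beta-catenin gene, had 1808 and 1979 with DMSO and 2109 and 2022 with ET-3 and did not pass (adjusted p = 0.0979). Of 47 genes of chromatin proteins and DNA methylation enzymes 3 were upregulated and 4 downregulated. Both counts fell when any 1 library was left out. Tet2, among the 4, went from 492 and 477 to 176 and 199 (log2 fold change -1.37 ± 0.08). Of 31 genes of splicing regulators and other RNA-binding proteins 5 were downregulated, and fewer when any 1 library was left out. Among the 5 were Rbfox1 (366 and 323 to 18 and 20, log2 fold change -4.11 ± 0.14) and Rbm20 (1288 and 1201 to 340 and 350, log2 fold change -1.85 ± 0.05). Mbnl1 (1028 and 890 to 1019 and 1033) did not pass. Of 28 Hox genes 1 was downregulated, Hoxc13 (110 and 93 to 30 and 31), and 1 upregulated, Hoxa11 (88 and 99 to 235 and 246).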

How the data were processed

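Per the labels, MuSC libraries were prepared with SMART-Seq HT from RNA of cells grown with DMSO or ET-3, and the NT libraries of the series were not used here. The deposited values are a signal per gene that the authors made from read counts by multiplying each library with 1 factor and rounding. Per the submitters' processing notes the tools were FastQC, Trimmomatic 0.38, STAR 2.7.7a, Subread featureCounts 1.6.5 and DESeq2 1.30.0, with the mm10 build. The study's methods name a stranded kit and other tool versions, and state that counting left out reads shared by several genes or places in the genome. Which account holds for these libraries is not known, and removal of duplicate reads is not given in the sources used here. Because whole reads could be recovered only after undoing these factors, count models were not the main test. Values were taken as deposited, log2-transformed after adding 1, filtered at a mean of 5 over the 4 libraries and tested with limma 3.58.1 (R 4.3.3, moderated test with a mean-variance trend), with Benjamini-Hochberg adjustment over 14038 genes. Calls of upregulated and downregulated genes required an adjusted p of at most 0.05 and at least 2-fold change. A level of 0 in both libraries of a group was replaced by a floor of 3 per library for folds. The recovered reads numbered 3629301 to 4646134 per library, and floors cover counting error only.

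Groups came from the sample labels. Gene groups were 41 hand-written lists and Gene Ontology terms from the deposited annotation and the reference tables. The members and lists were chosen with earlier results of these data known. Named genes were those with the largest fold change (15 per direction, mean of at least 50 in the higher group), the largest difference in value (10 per direction), up to 4 passing and 2 not passing members of each list, 5 per direction among annotated factors, ligands and receptors, and a fixed set of myogenic, endothelin and G protein genes. Aldh3a1, Ampd3, Ccnd3, Cdh5, Cdkn1a, Chac1, Cnn1, Col13a1, Col17a1, Col18a1, Col27a1, Des, Dtnb, E2f2, Gpx7, Itpr1, Itpr2, Itpr3, Mef2a, Mef2d, Myf6, Myh11, Ndufv3, Nqo1, Pecam1, Ptprz1, Rnf183, Rpl22, Six2, Sod3, Srxn1, Tmem59l, Tpm3, Trdn and Xirp1 were named after their values were seen. Same-numbered libraries of the groups did not deviate together (r = -0.0035 across genes), and replicate numbers were not used as pairs. Alternatives were other filters, pseudocounts, scalings, error models, the averaged ET-3 pair and the omission of each library. Some results are not reported here.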

Additional observations from a re-analysis of the deposited data

How the results depend on the processing

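With the ET-3 pair averaged as 1 sample, 443 genes were upregulated. Leaving out 1 library at a time gave 455 to 660 upregulated and 1188 to 1842 downregulated genes. Without a fold threshold 3880 and 4528 genes passed, and at 4-fold 242 and 1136. All other settings (no filter, a minimum mean of 20, pseudocounts of 0.5 and 5, scaling by library total or upper quartile, no trend, voom on recovered reads) kept both counts within 1.5 times and no named gene reversed. With the replicate block the counts were 865 and 2174. Deviations of same-numbered samples had r = -0.0035. The ET-3 pair differed by no more than read sampling would give, so this value cannot tell whether same-numbered samples were paired. Of 336 named genes, 47 lost their call with the averaged pair, and 55, 59, 46 and 46 without DMSO replicates 1 and 2 and ET-3 replicates 1 and 2. The 336 include named genes that did not pass in the main test and so had no call to lose. The cause of these losses was not tested. Depth limits genes of low value, whose median SE at a mean of 5 to 20 was 0.41.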

Other observations

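Of 33 tested small nucleolar RNA genes, which guide the modification of ribosomal RNA, 10 were upregulated and none downregulated. These genes lie in introns of host genes, and reads of unspliced host transcripts that cover such a gene cannot be told apart from its own. Processed pseudogenes were upregulated in 25 and downregulated in 9 of 328 cases, whereas lincRNA genes were upregulated in 26 and downregulated in 86 of 248. Among 27 tested cytokine and chemokine genes 9 were downregulated and 4 upregulated. The 9 became 3 without DMSO replicate 2 and 5 without ET-3 replicate 1, and the 4 became 2 without DMSO replicate 2, 0 without ET-3 replicate 1 and 1 without ET-3 replicate 2. Among 31 interferon response genes 4 were called each way. The 4 upregulated became 2, 1, 2 and 1 without DMSO replicates 1 and 2 and ET-3 replicates 1 and 2, and the 4 downregulated became 1 and 0 without DMSO replicates 1 and 2. Of 46 BMP and TGF-beta genes 7 were upregulated, 2 without DMSO replicate 1, 3 without ET-3 replicate 1 and 4 without either other library, and 12 downregulated, 7 without either DMSO library. Of 38 matrix protease and inhibitor genes 5 were upregulated, 3 without DMSO replicate 1 and 2 without either ET-3 library, and 14 downregulated. Of 40 unfolded protein and amino acid stress genes 2 were upregulated, 1 without DMSO replicate 2 and none without either ET-3 library, and 4 downregulated, including Ddit3 (189 and 217 to 43 and 40, log2 fold change -2.26 ± 0.13), a stress transcription factor gene, and Chac1 (515 and 662 to 287 and 268, log2 fold change -1.07 ± 0.12), whose product degrades glutathione. Of 49 genes on a growth factor and receptor list, which also held Nptx1, 10 were upregulated and 18 downregulated.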
